A study of Mus musculus with 8 samples.

Results

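Dexamethasone given together with the gamma-secretase inhibitor DBZ was compared with DBZ given alone, in the small intestine of mice. The comparison took every column labelled for the combination and every column labelled for DBZ, 4 of the 8 columns in the series. Both DBZ columns held identical values in 22684 of 22690 probe sets, and in the other 6 one copy was listed at 0, so they were used as 1 array. This left 2 combination arrays and 1 DBZ array, 3 of the 7 distinct arrays. The 2 arrays of mice given dexamethasone alone entered the fit for their spread. For some of the named genes, the signals of these arrays are given beside those of the compared groups. The vehicle arrays were not used.

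All mice were 6-week-old C57/Black6 females. Combination mice received dexamethasone at 15 mg/kg plus DBZ at 10 micromol/kg, DBZ mice received the same dose of DBZ, and dexamethasone mice the same dose of dexamethasone. Agents were injected into the peritoneum once a day for 5 days, with DMSO as the vehicle. The design text gives 2 mice for each group, the labels say no more on how replicates were made, and the position along the gut is not named. Each p-value thus reflects only how these arrays scatter, and DBZ, with 1 array, has no spread of its own. The test assumes that the DBZ array varied like the arrays of the other groups.

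Gamma-secretase is the protease that cuts Notch receptors after a ligand binds and frees the part that enters the nucleus. In intestinal crypts this signal holds progenitors back from secretory fates, and its block turns crypt cells into goblet cells. Dexamethasone is a synthetic glucocorticoid: it binds the glucocorticoid receptor, which then switches on genes such as Fkbp5 and Per1 and restrains many inflammatory genes. The design asks how both agents act together, and glucocorticoids have been studied as a way to limit the gut toxicity of gamma-secretase inhibitors.

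Signals are array brightness values in arbitrary units, scaled to one trimmed mean. A change is the difference of log2(signal + 12.1), combination minus DBZ, followed by its SE, and this offset understates the change of dim genes. A change given without an adjusted p did not pass the test. A probe set is a group of probes on the array, and several may read 1 gene. The tissue label was checked with markers of intestinal epithelium: Vil1, Fabp2, Cdx2, Cdh17, Lgals4, Epcam and Krt20 all passed the filter on dim signals. Villin 1 gave signals of 6451 and 7813 on the combination arrays and 7292 on the DBZ array. The DBZ array stood apart in the ratio of 3′ to 5′ control probe sets, a sign of RNA or labelling quality. This ratio was 1.80 for Gapdh on the DBZ array, against 0.905 and 1.22 on the combination arrays and 1.18 and 1.15 on the dexamethasone arrays. For beta-actin it was 2.17, against 1.34 and 1.30 and then 1.40 and 1.22. Its part in the results below was not tested. The Spearman correlation across probe sets was 0.956 between the combination arrays, and 0.951 and 0.940 between each of them and the DBZ array. In whole tissue, fewer cells of a type and less RNA per cell cannot be told apart.

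Few probe sets passed the test. With limma and Benjamini-Hochberg adjustment, 22 of 13619 tested probe sets passed an adjusted p of 0.05 (0.162%), of which 20 were higher in the combination (0.147%) and 2 were lower (0.0147%). An unadjusted p of 0.05 was passed by 1889 (13.9%), 1188 higher (8.72%) and 701 lower (5.15%). When each of 8095 genes was read by its brightest probe set, 3 passed (0.0371%): Hmgn1 and Ctse were higher (0.0247%) and Clu was lower (0.0124%). At an unadjusted p of 0.05 these genes numbered 884 (10.9%), 416 higher (5.14%) and 468 lower (5.78%). Both combination arrays lay above the DBZ array in 2686 genes (33.2%) and below it in 3269 (40.4%), and the DBZ array lay between them in 2140 (26.4%). The median change of all tested genes was -0.03. The count of calls depended on which arrays set the spread: it was 0 without combination 1 (1735 at an unadjusted p of 0.05), 0 without combination 2 (1457), 216 without dexamethasone 1 and 220 without dexamethasone 2.

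The 2 genes with a probe set that fell were Reg3b and Clu. Reg3b encodes a secreted lectin that kills bacteria, made by enterocytes and Paneth cells in response to microbes and inflammation. Its called probe set gave 969 and 1169 on the combination arrays, 6822 on the DBZ array and 5529 and 3025 on the dexamethasone arrays. Both combination arrays were far below every other array. The change was -2.67 ± 0.34 (limma, adjusted p = 0.047), a level 6.35-fold higher in DBZ. The brighter Reg3b probe set read 726 and 826 in the combination and 7017 in DBZ, a change of -3.16 ± 0.46 that did not pass (adjusted p = 0.053). The dexamethasone arrays read 6833 and 2667 on it, so that dexamethasone 1 was near DBZ and dexamethasone 2 was lower.

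Reg3g, the neighbouring gene for a related lectin, also had its lowest signals on the combination arrays, without passing. Its signals were 270.0 and 465 in the combination, 3712 in DBZ and 4746 and 1191 with dexamethasone alone, a change of -3.34 ± 0.67 (adjusted p = 0.107). Dexamethasone 1 was above DBZ, and the groups compared did not overlap. The promoters of both genes are shown because the combination arrays were the lowest of the 5 for both. RefSeq (GRCm38.p6) gives these 100 bases before each start, 5′ to 3′, with the longest run that both share in capitals:
Reg3b, chr6:78370785-78370884, plus strand: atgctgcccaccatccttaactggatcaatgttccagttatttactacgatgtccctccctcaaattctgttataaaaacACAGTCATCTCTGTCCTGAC
Reg3g, chr6:78468875-78468974, minus strand: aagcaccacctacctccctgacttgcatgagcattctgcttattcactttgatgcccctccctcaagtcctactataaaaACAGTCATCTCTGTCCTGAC
The shared run is 20 bases long within these windows. It ends at the last base before the start in both genes, where the search ended, so it may run on. It occurs in 2 of 32851 such windows of the promoter table. Those 2 are the windows of Reg3b and Reg3g, from which it was taken, so the count says nothing more. TATAAAA, read on the gene's strand, begins 29 bases before the start of Reg3b and 27 before that of Reg3g, and is found in 505 of all windows (1.54%). Neither fact was tested against the change in signal.

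Other antimicrobial genes had smaller changes. Of the Reg family and antimicrobial list, 3 of 10 tested genes were above the DBZ array on both combination arrays and 4 below it, with a median change of -0.14. Reg3a read 1072 and 1253 in the combination and 844 in DBZ (0.45 ± 0.19), and Reg4 read 304 and 364 against 204 (0.67 ± 0.41). Slpi, an inhibitor of leukocyte proteases, read 795 and 799 against 1164 (-0.54 ± 0.18). Lcn2, which starves bacteria of iron, read 20.1 and 40 against 5.01, dim values that rest on the offset. Counts over all genes for comparison are 33.2% above and 40.4% below.

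Clusterin, encoded by Clu, is a secreted chaperone that marks regenerating intestinal epithelium after injury. Its called probe set gave 269.7 and 285 on the combination arrays and 826 on the DBZ array, and the dexamethasone arrays gave 318 and 268. The DBZ array was the highest of the 5, and the other 4 lay close together. The change was -1.53 ± 0.20 (adjusted p = 0.0477), 2.9-fold higher in DBZ. The 3 other tested probe sets of Clu ran from -1.53 to -1.11, so each was more than 2-fold lower in the combination.

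**Figure D1:**
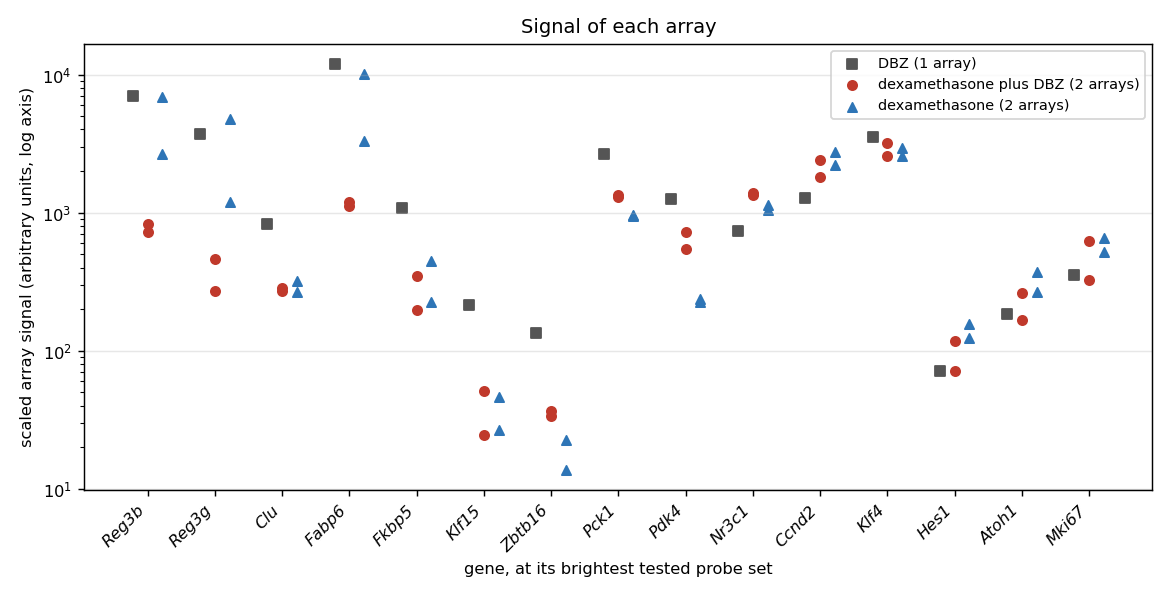
Scaled signal (log axis) of each array for 15 genes, each at its brightest tested probe set, with the DBZ array as a square, the combination arrays as circles and the dexamethasone arrays as triangles. Reg3b, Reg3g and Fabp6 sit lowest on the combination arrays, while Clu, Fkbp5, Klf15, Zbtb16, Pck1 and Pdk4 sit highest on the DBZ array.

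Of the 20 probe sets that rose, 16 carried 1 gene symbol. Each of the 16 genes had at least 1 other tested probe set, 34 in all, and none of the 34 passed. Their changes ran from -0.23 to 1.43 with a median of 0.26, 24 were positive and 5 were at least 2-fold. The called probe set was the gene's brightest one in only 2 of the 16 genes.

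Hmgn1, which encodes a nucleosome-binding protein, had the largest rise of all tested probe sets. Its called probe set read 1196 and 1544 in the combination, 165 in DBZ and 1453 and 1554 with dexamethasone alone, a change of 2.95 ± 0.21 (adjusted p = 0.00833). The DBZ array was alone in its low value. A second probe set of the gene read 863 and 1239 against 902, a change of 0.19 ± 0.24, so the DBZ array was not low there. Hnf4a, the nuclear receptor that maintains enterocyte identity, read 351 and 341 against 100.1 on its called probe set (1.67 ± 0.21, adjusted p = 0.047). Its brightest probe set read 3320.1 and 3763 against 3341 (0.08 ± 0.21). The 3 probe sets of Hnf4a that were not called, with the brightest among them, had changes from 0.08 to 1.02.

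Tfrc, the transferrin receptor that brings iron into cells, rose on a dim probe set, at 80.0 and 78.9 against 3.18 (2.58 ± 0.35, adjusted p = 0.0477). Its bright probe set read 761 and 1142 against 586 (0.66 ± 0.25). Ctse, the protease cathepsin E, read 337 and 258 in the combination, 72.6 in DBZ and 264 and 239 with dexamethasone alone (1.86 ± 0.24, adjusted p = 0.047), and its other probe set read 38.6 and 68.0 against 57.5 (-0.13 ± 0.38). Sgpl1, which breaks down sphingosine phosphate, read 1144 and 1104 against 211 on the called probe set (2.35 ± 0.22, adjusted p = 0.0135) and 2332 and 1854 against 1558 on the brightest (0.41 ± 0.21). In each of these genes the size depended on which probe set was read.

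The median range between probe sets of 1 gene was 0.47 for combination minus DBZ, over 2964 genes with several tested probe sets. It was 0.34 between the combination arrays, 0.28 between the dexamethasone arrays and 0.21 for combination minus dexamethasone. A range over 2 was found in 26 genes for combination minus DBZ, in 9 between the combination arrays and in 1 for combination minus dexamethasone, which is a difference of means over 4 arrays. All probe sets had 1 sign in 1435 of the 2964 genes (48.4%).

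**Figure D2:**
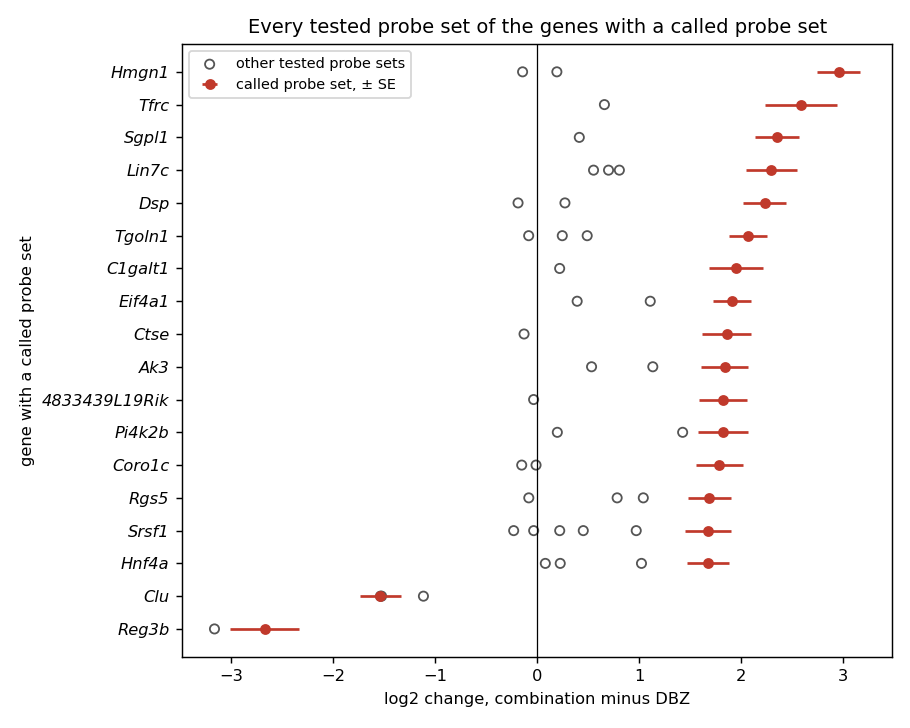
Log2 change (combination minus DBZ) of every tested probe set of the 18 genes with a called probe set, with the called one filled and its SE as a bar. Open circles of Clu and Reg3b lie at -1.11 or lower, while those of the other genes lie between -0.23 and 1.43.

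The other 4 probe sets that rose carried several symbols each and could not be assigned to 1 gene. All symbols they carry are globin genes, which red blood cells express. One of them read 3269 and 3768 in the combination, 634 in DBZ and 733 and 743 with dexamethasone alone. The combination arrays were the high ones, with the DBZ and dexamethasone arrays together below. The changes of the 4 were 2.45 (adjusted p = 0.00833), 2.45 (adjusted p = 0.047), 1.84 (adjusted p = 0.0146) and 1.65 (adjusted p = 0.047). The only tested gene of the red cell list, Fech, which makes haem in many cells, had a change of 0.16. The blood content of the segments was not tested.

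Past these calls, the genes with the smallest p did not pass. Fabp6, the ileal protein that carries bile acids through enterocytes, read 1189.8 and 1116 in the combination, 11866 in DBZ and 3324 and 10013 with dexamethasone alone (-3.35 ± 0.53, adjusted p = 0.0555). DBZ and dexamethasone 2 were the high arrays, and dexamethasone 1 lay between them and the combination. Neu1, a lysosomal sialidase, read 325 and 363 in the combination, 895 in DBZ and 987 and 821 with dexamethasone alone (-1.35 ± 0.20, adjusted p = 0.053). Only the combination arrays were low. Prss23, a secreted serine protease, read 249 and 258 in the combination, 598 in DBZ and 532 and 512 with dexamethasone alone (-1.20 ± 0.19, adjusted p = 0.0555). Only the combination arrays were low here too. Coro1a, an actin-binding protein of leukocytes, read 55.6 and 80.3 against 252 (-1.74 ± 0.30, adjusted p = 0.0681). The dexamethasone arrays read 76.6 and 79.6 for Coro1a, so only the DBZ array was high.

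On the higher side, Rpl22, a ribosomal protein, read 1623 and 1631 against 626 (1.36 ± 0.19, adjusted p = 0.053). The dexamethasone arrays read 1637 and 1407 on this probe set, so only the DBZ array was low. The other Rpl22 probe set had a change of -0.10. Mxd1, a repressor that opposes Myc, read 229 and 237 against 65.6 (1.66 ± 0.24, adjusted p = 0.053). Gata6, a transcription factor of the intestinal epithelium, read 1061 and 1071 in the combination, 435 in DBZ and 746 and 853 with dexamethasone alone (1.27 ± 0.19, adjusted p = 0.053). Both combination arrays were above all others, but the second Gata6 probe set had a change of only 0.33. Snrpd3 (1.75 ± 0.26) and Srsf2 (1.22 ± 0.19), which serve RNA splicing, also had probe sets with negative changes.

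By size alone, 52 genes were at least 2-fold above the DBZ array on both combination arrays (0.642%) and 53 at least 2-fold below (0.655%). This rule was added after the values were seen, and carries no test. The total of 105 moved with the settings: it was 161 and 37 with a smaller and a larger offset, 283 with no filter, 49 with a stricter filter, and 327 and 222 without combination 1 and without combination 2. Of the lower genes, 10 of 53 reached the filter only through the DBZ array, where they are high. The genes named here from this group were chosen after their values were seen. Among the lower genes were Slc10a2, which takes bile acids up in the ileum (73.9 and 17.4 against 164), and Slc25a48 (3.46 and 5.80 against 111), a mitochondrial carrier. Slc25a48 reached the filter only through the DBZ array, and its size rests on the offset. Ptprc, the pan-leukocyte marker CD45, read 169 and 178 against 383. Prodh, which degrades proline, read 119 and 136 against 418. Among the higher genes, Met, the receptor of hepatocyte growth factor, read 72.9 and 116 against 17.6, and Itln1, the Paneth and goblet cell lectin intelectin, read 1952 and 3780.2 against 965. Chac1, a stress gene that degrades glutathione, read 72.9 and 81.8 against 3.40 (2.53 ± 0.40, adjusted p = 0.0555), and its size rests on the offset.

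Genes that the glucocorticoid receptor is known to control were mostly below DBZ in the combination. Of the list, 6 of 40 tested genes were above the DBZ array on both combination arrays and 31 below it, 0 passed in limma, and at an unadjusted p of 0.05 there were 1 higher and 13 lower. Of all tested genes, 0.0371% passed, 33.2% were above and 40.4% below on both arrays, and 5.14% were higher and 5.78% lower at that p. The median change of the list was -0.39, with -0.37 on combination 1 and -0.44 on combination 2, against -0.03 for all genes. The array labelled DBZ was the highest of the 5 arrays in 24 of the 40, against 23.9% of all tested genes.

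Fkbp5, a co-chaperone of the receptor that glucocorticoids induce in most tissues, read 346 and 197 in the combination, 1072 in the array labelled DBZ and 449 and 224 with dexamethasone alone (-1.98 ± 0.42, adjusted p = 0.118). The array that received no dexamethasone by its label was thus the highest, on the second probe set too (-0.83). Klf15, a factor of amino acid and glucose metabolism, read 24.4 and 50.8 in the combination, 215 in DBZ and 46.6 and 26.9 with dexamethasone alone (-2.24 ± 0.44, adjusted p = 0.097). Zbtb16, a transcriptional repressor, read 36.6 and 33.5 in the combination, 135 in DBZ and 13.7 and 22.4 with dexamethasone alone (-1.65 ± 0.38). In all 3 genes the 4 arrays labelled with dexamethasone lay below the DBZ array. Klf15 and Zbtb16 reached the filter on dim signals only through the DBZ array, where they were high. Whether the label of that array is right was not tested, and a wrong label would change the meaning of every difference from DBZ given here.

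Pck1, the key enzyme of glucose synthesis, read 1336 and 1291 in the combination and 2639 in DBZ (-1.0 ± 0.18, adjusted p = 0.0762), with 947 and 969 under dexamethasone alone. Pdk4, which spares glucose from oxidation, read 719 and 543 against 1248 (-0.98 ± 0.22). Per1, a clock gene, read 155 and 102 against 202 (-0.63 ± 0.32). Tsc22d3, which encodes the anti-inflammatory protein GILZ, read 1254 and 1068 against 1712 (-0.56 ± 0.32), and its other probe sets had changes of 0.12 and -0.01. Nr3c1, the receptor itself, was the other way on all 3 probe sets, at 1390.0 and 1343 against 731 on the brightest (0.89 ± 0.18, adjusted p = 0.108), with 1.28 and 0.57 on the others. The dexamethasone arrays read 1036 and 1145, between the 2 groups.

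**Figure D3:**
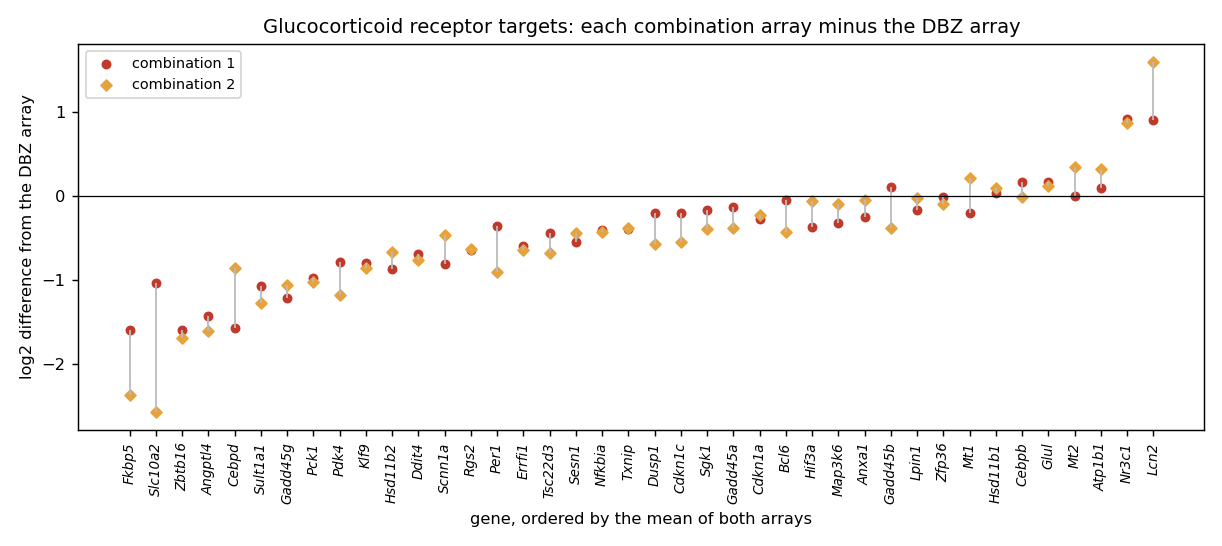
Log2 difference of each combination array from the DBZ array for the 40 tested glucocorticoid receptor targets, ordered by their mean. On both combination arrays 31 genes lie below 0 and 6 above it, and Slc10a2 shows the widest gap between the arrays.

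The glucocorticoid receptor binds a palindrome whose core was searched as GNACA, then any 3 bases, then TGTNC, which reads the same on both strands. In RefSeq promoters (250 bases before to 50 after the start), 4 of 45 promoters of tested target genes held it (8.89%, a list of genes known as targets), against 25 of 8538 for all tested genes (0.293%), of which 6593 of 8095 were matched. Among genes 2-fold lower on both arrays 2 of 56 promoters held it (3.57%), and 0 of 48 did among those 2-fold higher. These shares describe the sequences only, and no match says only that the letters are not in the window. The 4 targets are shown with 24 bases on each side and the match in capitals, with the 2 genes of the 2-fold group:
Sgk1, chr10:21993678-21993738, plus strand: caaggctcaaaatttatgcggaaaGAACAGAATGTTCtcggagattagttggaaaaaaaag
Txnip, chr3:96557761-96557821, plus strand: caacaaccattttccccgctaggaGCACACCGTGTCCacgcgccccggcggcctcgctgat
Map3k6, chr4:133240613-133240673, plus strand: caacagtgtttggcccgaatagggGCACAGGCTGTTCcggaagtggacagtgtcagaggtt
Mt1, chr8:94178971-94179031, plus strand: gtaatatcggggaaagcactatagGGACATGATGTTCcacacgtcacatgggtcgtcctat
Suox, chr10:128673928-128673988, minus strand: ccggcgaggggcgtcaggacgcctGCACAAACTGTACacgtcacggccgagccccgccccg
Limd2, chr11:106160875-106160935, minus strand: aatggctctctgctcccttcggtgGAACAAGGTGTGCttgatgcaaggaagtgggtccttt
Sgk1, a kinase of sodium transport, read 4505 and 3850.1 in the combination and 5041 in DBZ (-0.27 ± 0.26), and Txnip, which limits glucose uptake, read 2381 and 2411 against 3135 (-0.39 ± 0.21). Mt1, a metallothionein, read 9130.3 and 12217 against 10487 (0.01 ± 0.29). Suox, sulfite oxidase, which detoxifies sulfite, read 205 and 192 against 649 (-1.65 ± 0.46), and Limd2 read 124 and 124 against 296 (-1.18 ± 0.32). Map3k6 had a change of -0.21. Suox and Limd2 were shown because they were at least 2-fold lower, so their large changes follow from that choice. Whether the match goes with the size of a change was not tested.

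No listed gene of the Notch pathway, on which DBZ acts, passed the test, which only 3 of all 8095 tested genes did (0.0371%). Of receptors, ligands and targets, 5 of 16 tested genes were above the DBZ array on both combination arrays and 8 below it, 0 passed in limma, and at an unadjusted p of 0.05 there were 1 higher and 1 lower. Over all tested genes, 33.2% were above and 40.4% below on both arrays, with 5.14% higher and 5.78% lower at that p. The median change of the Notch list was 0.01. Hes1, the main Notch target in crypts, read 71.0 and 118 in the combination, 71.3 in DBZ and 123 and 155 with dexamethasone alone (0.32 ± 0.34, adjusted p = 0.732). Combination 1 was level with DBZ and combination 2 was higher. Atoh1, the factor that commits cells to secretory fates, read 168 and 262 against 184 (0.18 ± 0.31), and the combination arrays lay on either side of DBZ. Notch2 read 72.6 and 67.5 against 121 (-0.69 ± 0.28), and Rbpj, the DNA-binding partner of cut Notch, read 155 and 155 against 98.6 (0.59 ± 0.26). The gamma-secretase subunits had a median of -0.10.

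Goblet cell products lay around the DBZ level. Of 20 tested genes the DBZ array lay between the combination arrays in 15, and changes ran from -0.34 to 0.18. The median was -0.11, with -0.29 on combination 1 and 0.14 on combination 2, so the arrays fell on both sides. The summed signal of the list was 53501 and 77917 on the combination arrays, 69819 on the DBZ array and 66278 and 64779 on the dexamethasone arrays. Muc2 was not analysed here. Klf4, a goblet cell and differentiation factor, read 3168 and 2561 in the combination, 3507 in DBZ and 2578 and 2958 with dexamethasone alone (-0.30 ± 0.23, adjusted p = 0.615), and its second probe set had a change of -0.14. Both combination arrays were below DBZ.

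Ccnd2, the cyclin D2 that drives cells into S phase, was above DBZ on both combination arrays in every one of its 6 probe sets, and none passed. The brightest read 1826 and 2388 in the combination, 1275 in DBZ and 2197 and 2763 with dexamethasone alone (0.71 ± 0.24, adjusted p = 0.256). The others ran from 0.27 to 1.13. DBZ was the lowest array throughout. Of the Klf and D-type cyclin list, 2 of 12 tested genes were above the DBZ array on both combination arrays and 6 below it. For all tested genes these shares were 33.2% and 40.4%. Klf13 read 213 and 249 against 489 (-1.05 ± 0.22), and Klf9, a glucocorticoid target, read 1567 and 1507 against 2737 (-0.83 ± 0.32) with all 6 probe sets negative. None of these passed.

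Genes of cell division were mostly above DBZ, but by an amount that differed between the combination arrays. Of G2/M genes, 18 of 33 tested genes were above the DBZ array on both combination arrays and 2 below it, 0 passed in limma, and at an unadjusted p of 0.05 there were 8 higher and 0 lower. Among all tested genes, 0.0371% passed, 33.2% were above and 40.4% below on both arrays, with 5.14% higher and 5.78% lower at that p. The median of G2/M genes was 0.44, with 0.14 on combination 1 and 0.93 on combination 2. The DBZ array was the lowest of the 5 in 18 of 33, against 24.4% of all tested genes. Racgap1, which organises the cleavage furrow, read 58.5 and 98.9 in the combination, 16.5 in DBZ and 73.1 and 123 with dexamethasone alone (1.63 ± 0.41, adjusted p = 0.165), and Cdca3 read 104 and 129 in the combination, 50.2 in DBZ and 202 and 230.4 with dexamethasone alone (1.04 ± 0.26). DBZ was the lowest array in both. Mki67 read 327 and 624 against 356 (0.34 ± 0.35), with combination 1 slightly below DBZ. For G1/S genes the median was 0.16, with -0.06 on combination 1 and 0.33 on combination 2, and 14 of 30 tested genes were above the DBZ array on both combination arrays and 6 below it. Stem cell and Wnt genes had a median of -0.01, and Olfm4 was not analysed here.

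**Figure D4:**
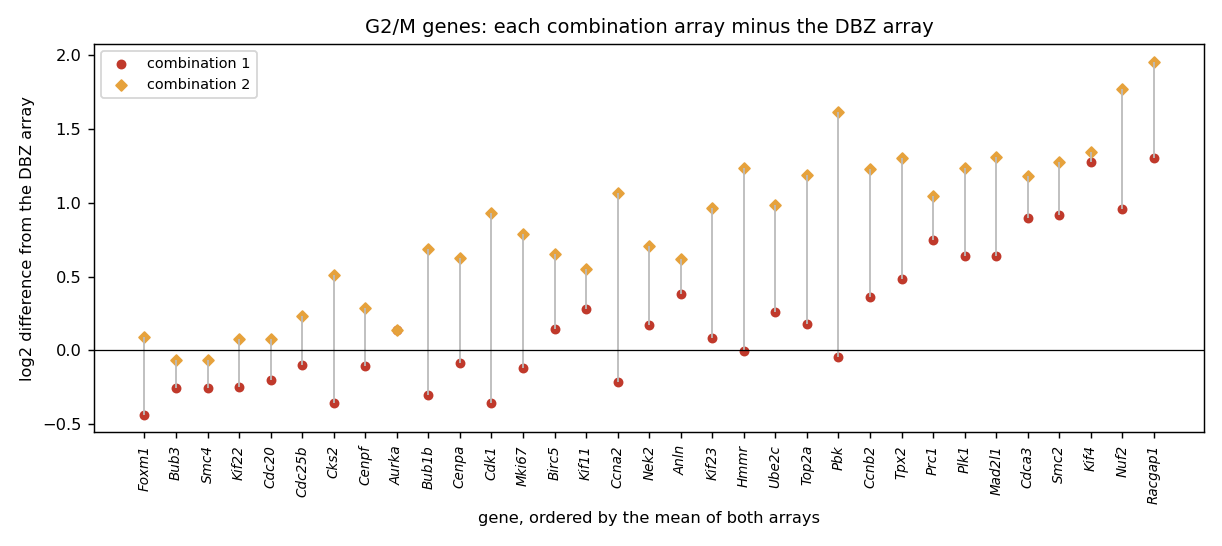
Log2 difference of each combination array from the DBZ array for the 33 tested G2/M genes, ordered by their mean. Combination 2 (diamonds, median 0.93) lies above combination 1 (circles, median 0.14) in most genes, and 18 genes are above 0 on both arrays.

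Paneth cell genes split in the same way between the arrays. Of 7 tested, 5 were above DBZ on both arrays and 2 below, 0 passed in limma, and at an unadjusted p of 0.05 there were 2 higher and 0 lower. Shares over all tested genes were 0.0371% passing, 33.2% above and 40.4% below, with 5.14% higher and 5.78% lower at that p. The median of Paneth cell genes was 0.70, with 0.21 on combination 1 and 0.95 on combination 2. Lyz1, the Paneth cell lysozyme, read 6106 and 12049 in the combination, 5289.9 in DBZ and 9284 and 10528 with dexamethasone alone (0.70 ± 0.39). Itln1 had a change of 1.48 ± 0.40 (adjusted p = 0.187), and Mmp7, which activates defensins, of 0.80 ± 0.40. DBZ was the lowest array in all 3. Dll4, a Notch ligand on the same list, read 52.6 and 50.7 against 88.9 (-0.66 ± 0.32), and its other probe set had a change of 0.65.

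Ileal genes lay mostly below DBZ in the combination, and some genes of the proximal gut lay above it. Of the ileal list, 2 of 22 tested genes were above the DBZ array on both combination arrays and 16 below it, 0 passed in limma, and at an unadjusted p of 0.05 there were 1 higher and 8 lower. Over all tested genes, 0.0371% passed, 33.2% were above and 40.4% below on both arrays, and 5.14% were higher and 5.78% lower at that p. The median of the ileal list was -0.40, with -0.52 on combination 1 and -0.35 on combination 2. The summed signal was 48049.7 and 63631 on the combination arrays, 79691 on the DBZ array and 50749 and 66515 on the dexamethasone arrays. Nr1h4, the bile acid receptor FXR, read 199.9 and 279 in the combination, 534 in DBZ and 375 and 374 with dexamethasone alone (-1.14 ± 0.24, adjusted p = 0.114), and Slc51a, which exports bile acids, read 1142 and 1367 in the combination, 2476 in DBZ and 1569 and 2404 with dexamethasone alone (-0.98 ± 0.27). For both the combination arrays were the lowest. Of 23 tested genes of the proximal list, 10 were above DBZ on both arrays (43.5%) and 6 below (26.1%), with a median of 0.15. Ctse was the 1 call of this list, on 1 of its probe sets only. Scd1, which makes monounsaturated fatty acids, read 607 and 349 in the combination, 1232 in DBZ and 2327 and 2845 with dexamethasone alone (-1.40 ± 0.31), and its other probe set had a change of 0.15. Gata4, a factor of the proximal small intestine, read 353 and 338 against 191 (0.82 ± 0.20). Dexamethasone 1 also stood apart in colon-type genes such as Car1, at 7427 against 39.9 on dexamethasone 2. Since the segment is not named, position along the gut and treatment cannot be told apart.

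Genes of antigen presentation and of B cells lay mostly below DBZ. All 6 tested MHC class II genes were below DBZ on both combination arrays, against 40.4% of all genes, 0 passed in limma, and at an unadjusted p of 0.05 there were 0 higher and 4 lower. Of all tested genes, 0.0371% passed, and 5.14% were higher and 5.78% lower at that p. The median of the class II genes was -0.90. H2-Aa, a class II chain, read 688 and 787 in the combination, 1456 in DBZ and 665 and 606 with dexamethasone alone (-0.97 ± 0.19, adjusted p = 0.0957), and Cd74, its chaperone, read 582 and 913 in the combination, 1744 in DBZ and 515 and 659.9 with dexamethasone alone (-1.24 ± 0.28). The DBZ array was the highest of the 5 in each of the 6 genes. B and plasma cell genes were below DBZ in 7 of 9, with a median of -0.41, and 2 of the 7 reached the filter only through the DBZ array. Jchain, which joins IgA, read 1751 and 1330.3 against 2039 (-0.41 ± 0.26). T cell genes had a median of -0.23, myeloid genes -0.05 and interferon response genes -0.07. Gzmb, a protease of cytotoxic cells, was above DBZ at 87.1 and 66.5 against 37.7 (0.83 ± 0.31). The number of lymphoid cells in each segment was not tested.

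Muscle and stroma genes also lay mostly below DBZ. Of smooth muscle genes, 1 of 19 tested was above the DBZ array on both combination arrays and 14 were below it, with a median of -0.34, and the summed signal was 35780.0 and 32688 on the combination arrays, 43455 on the DBZ array and 47868 and 35044 on the dexamethasone arrays. Des, the intermediate filament desmin, read 871 and 674 in the combination, 1587 in DBZ and 1934 and 876 with dexamethasone alone (-1.04 ± 0.40), so dexamethasone 1 was above DBZ. Of fibroblast and matrix genes, 7 of 34 tested genes were above the DBZ array on both combination arrays and 22 below it, with a median of -0.27. Beside both lists, the shares over all tested genes were 33.2% above and 40.4% below. Col4a1 of the basement membrane read 471 and 489 against 800.2 (-0.72 ± 0.29), while Ogn, a matrix proteoglycan, read 432 and 436 against 254 (0.74 ± 0.19). Whether the amount of muscle in the segments moved the other lists was not tested.

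Brush border, fatty acid oxidation and fat absorption genes lay close to DBZ by their medians, which were -0.04, 0.01 and 0.06 in that order. Cholesterol synthesis genes had a median of -0.23. Of these, 12 of 20 tested genes were below the DBZ array on both combination arrays and 6 above it. Over all tested genes these shares were 40.4% and 33.2%. Apob, the core protein of chylomicrons, read 6112 and 5773 in the combination, 2896 in DBZ and 1323 and 2640.0 with dexamethasone alone (1.03 ± 0.36), so the combination was the highest. Pnliprp2, a lipase, read 1516 and 1304 against 584 (1.25 ± 0.32) with its second probe set at 1.19. Stress genes of the endoplasmic reticulum had a median of 0.05, and Sel1l, which serves the disposal of misfolded proteins, read 539 and 535 against 263 (0.997 ± 0.20) with all 4 probe sets positive. Of apoptosis genes, Bcl2l11, the death factor BIM, read 549 and 599.8 against 1278 (-1.14 ± 0.23), while 2 of its 4 probe sets were slightly positive.

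**Figure D5:**
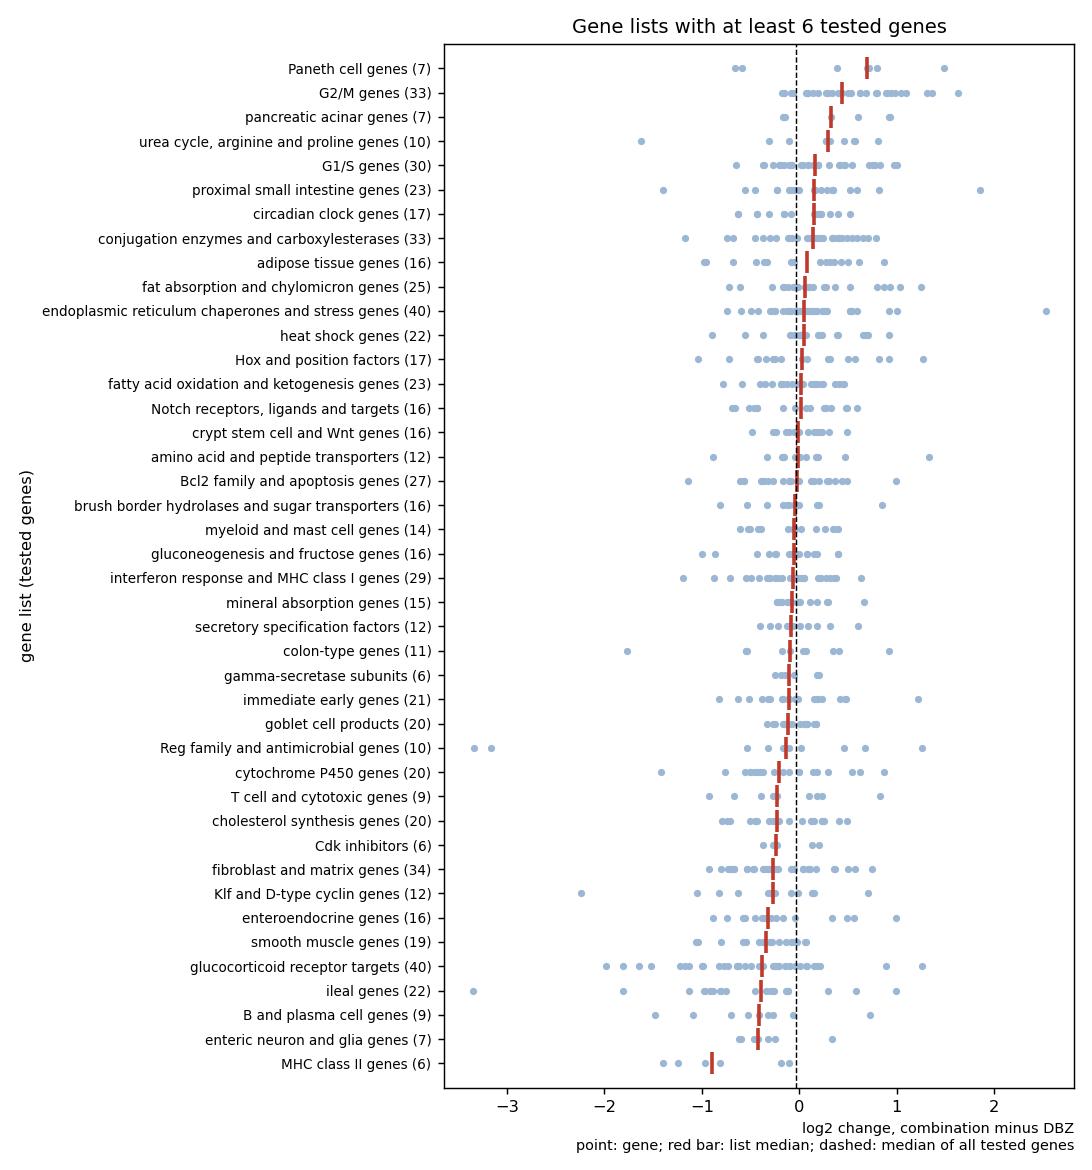
Log2 change (combination minus DBZ) of each tested gene in the gene lists with at least 6 tested genes, as points, with each list's median as a red bar and the median of all tested genes (-0.03) as a dashed line. MHC class II genes have the lowest median (-0.90) and Paneth cell genes the highest (0.70), and most lists lie close to the dashed line.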

How the data were processed

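Total RNA of snap-frozen small intestine was made into biotin-labelled cRNA and hybridised to Affymetrix arrays, per the labels' protocols. The deposited intensity values are MAS5 signals of the authors, 1 per probe set, per the submitters' processing notes (version: not given in the sources used here). A 2% trimmed mean of 250 was set on every array, with the DBZ columns averaged as 1 array. The 6 probe sets on which these columns differed and 64 control probe sets were left out. Signals had 12.1 (their pooled 20th percentile) added before log2, and the 13619 probe sets with a mean signal of 38.3 or more (the pooled 40th percentile) were tested. A single gene symbol was available for 20393 of the 22690 probe sets, several for 691 and none for 1606. Each of 8095 genes was represented by its brightest tested probe set, and its other probe sets were set beside it.

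Group means of 5 arrays were fitted with limma 3.58.1 in R 4.3.3. The empirical Bayes step used an intensity trend, p is 2-sided, and Benjamini-Hochberg adjustment at 0.05 covered every probe set tested. With 2 residual degrees of freedom, the number of arrays limits the precision. The named genes were those past the threshold, or the 5 with the smallest p where fewer than 5 passed in a direction. To these were added 10 genes chosen for their roles, up to 6 members of each described list by smallest p, genes whose promoters hold the motif, and genes said in the text to be chosen after their values were seen. The members and the 44 gene lists were chosen with earlier results of these data known. The scripts were tested on simulated data. Alternatives were the values as deposited, quantile scaling, other pseudocounts and filters, a fit with no trend, other groups in the fit, single DBZ columns, no _x_at or _s_at probe sets, a block for the replicate number, and leaving out 1 array at a time.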

Additional observations from a re-analysis of the deposited data

How the results depend on the processing

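The 22 calls stood at 22 with the values as deposited and with either DBZ column alone, at 15 with quantile scaling and at 17 with the 60th percentile filter. Other settings moved the count by more than 1.5 times. It was 62 with a pseudocount 4 times smaller, 7 with one 4 times larger, 2 with no filter and 0 with no intensity trend (limma, 1835 at an unadjusted p of 0.05). It was 210 with only the groups compared, 45 with all 4 groups and 4 without _x_at and _s_at probe sets. With the replicate block it was 251. The correlation of replicate deviations between the combination and dexamethasone groups was 0.109, over 1 pair of groups, which does not show that numbers pair mice. The DBZ array, with no number of its own, stood at the midpoint of the block. Leaving out each array gave 0 to 220 calls, 0 without either combination array and 216 or 220 without a dexamethasone array. The count of genes 2-fold from DBZ on both combination arrays, 105, was 161 and 37 with the smaller and larger pseudocount, 283 with no filter, 49 with the 60th percentile filter, 327 without combination 1 and 222 without combination 2. The lone array left in a group was then assumed to vary like the others. Without combination 2 and without combination 1, in that order, the changes ran from -0.0040 to 0.64 for Hes1, -0.20 to 0.22 for Mt1, -0.12 to 0.79 for Mki67, -0.0091 to 0.17 for Hnf4a at its brightest probe set and -0.12 to 0.48 for Atoh1, so their sign depended on the array. The cause of these shifts was not tested. Of 44 list medians 18 changed sign under at least 1 alternative. Group DBZ has 1 array, signals come without detection calls, and dim values rest on the pseudocount.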

Other observations

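Gene groups not described above lay on both sides of DBZ, and none of the genes named here passed the test. Over all tested genes, 33.2% were above the DBZ array on both combination arrays and 40.4% below it. Of enteroendocrine genes, 4 of 16 tested genes were above the DBZ array on both combination arrays and 10 below it, with a median change of -0.32. Pyy, the gut hormone peptide YY, read 179 and 205 in the combination against 364 in DBZ (-0.88 ± 0.23), while Gcg, the precursor of the glucagon-like peptides, read 144 and 200.4 against 79.7 (0.99 ± 0.26). Both hormones come from related cells of the distal gut, and their changes had opposite signs. Of urea cycle, arginine and proline genes, 7 of 10 tested genes were above the DBZ array on both combination arrays and 2 below it, with a median of 0.29. Odc1, the first enzyme of polyamine synthesis, read 2273 and 2431 against 1577 (0.57 ± 0.19), with all 3 probe sets positive.

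Among heat shock genes, 9 of 22 tested genes were above the DBZ array on both combination arrays and 3 below it, with a median of 0.04. Hspd1, the mitochondrial chaperonin, read 1353 and 2184 against 905 (0.92 ± 0.28), and Hsph1 read 399.6 and 413 against 247 (0.69 ± 0.20). The medians of circadian clock genes, cytochrome P450 genes and pancreatic acinar genes were 0.15, -0.21 and 0.32. Slc7a5, an amino acid transporter, read 42.3 and 87.6 against 17.2 (1.33 ± 0.48), and Egr1, an immediate early gene, read 386 and 513 against 185 (1.22 ± 0.38).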
